A study of Mus musculus with 14 samples.

Results

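The Dlk1-Dio3 locus of mouse chromosome 12 was followed through its 10 named genes: the non-coding hosts Meg3, Rian and Mirg, the coding genes Dlk1 and Rtl1, and the miRNA genes Mir770, Mir433, Mir370, Mir485 and Mir410. Members were the rows of the RNA-seq table with these names and the Degradome-seq pile-up sites whose gene field names at least 1 of them. This gave 11 of 3919 sites in the table of the Drosha experiment, 9 of 4666 sites in the table of the Dicer experiment, and 6 of 22376 genes in RNA-seq. All 9 sites of the Dicer table were also among the 11 of the Drosha table. No site named Dlk1, Rtl1 or Mir433, and every site was on the strand of the non-coding hosts. A list of 56 further genes of the locus added 3 sites to each table, in Mir136, Mir679 and Mir496a.

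The locus is imprinted. Its coding genes are transcribed from the chromosome inherited from the father, and Meg3, Rian and Mirg from the one inherited from the mother, as long RNAs in which many miRNA stem-loops and C/D box snoRNAs are embedded. Drosha, together with Dgcr8, cuts a miRNA stem-loop out of such a transcript in the nucleus, and Dicer later removes its loop in the cytoplasm. C/D box snoRNAs are usually trimmed out of spliced introns by exonucleases, without Drosha.

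Degradome-seq ligates a linker to polyA RNA that carries a 5′ monophosphate (5′P), so the first base of a read marks a cut or trimmed 5′ end, and a pile-up site is a position where many reads start. The samples were mouse ESCs grown with LIF on Mitomycin C-inactivated embryonic fibroblasts. Drosha-deficient cells were Drosha fl/fl ESCs with CreERT2 in the Rosa26 locus that received 100 nM 4-hydroxytamoxifen for 72 h and were harvested 48 h after its removal. Their control was the same line, which also carries the floxed allele and CreERT2, without the drug, so drug and deletion cannot be told apart. Dicer-deficient cells were Dicer fl/fl ESCs transduced with a retrovirus for Cre and GFP, sorted for GFP at day 3 and cultured for 2 more days. Their control is labelled GFP only, so Cre activity and deletion cannot be told apart either. Each of these 4 groups had 2 libraries, and RNA-seq had 3 control and 3 Drosha-deficient libraries. The labels do not say whether libraries of a group came from separate cultures, so the tests measure the spread between libraries, which may be technical.

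Values are RPM, read starts scaled to the mapped reads of the library, and their steps gave 28.7 to 31.0 M mapped reads in the Drosha experiment and 29.6 to 34.55 M in the Dicer experiment. By the paper's method, sites entered a table by their stack of reads in both control libraries. Such a rule makes a value below the controls more likely than 1 above them. The paper reports fewer control sites in each experiment than are held here, so the rule may not cover every site. A floor of 3 reads lay between 0.0868 and 0.105 RPM, which covers counting error only. Log2 of RPM plus 0.1 was compared with limma, and a site was called at an FDR under 0.05 (Benjamini-Hochberg over all sites of the table) with a log2 change past −1.5 or 1.5. The Drosha table moved as a whole: its median log2 change was −0.93, and 37.6% of its sites were called lower and 9.57% higher, which are 1473 and 375 sites. With each library centred on the median of its sites the Drosha changes all move up by 0.59, and 871 sites are called lower and 602 higher. In the Dicer table the same centring moves values by 0.014. Values are from the RPM as deposited unless the centred value is named. The main Mir290a site, the control for Drosha loss, fell by 3.76 on the log2 scale (SE 0.35, FDR 3.84e-06) in Drosha-deficient cells. A fainter Mir290a site, with 0.872 and 0.65 RPM in the controls, fell by 2.52 (SE 0.66, FDR 0.00348). The strongest of 3 sites in Dgcr8, whose mRNA carries stem-loops that Drosha cuts, fell by 2.31 (SE 0.39, FDR 1.22e-04), and the other two were not called. No site named Drosha or Dicer1, and their RNA in single libraries was not analysed here.

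The stem-loops of the locus are shown first, because the reads begin near the same end of each. These are the RefSeq precursors (GRCm38, plus strand), with the part that begins at the first base of the reads in capitals.
Mir770: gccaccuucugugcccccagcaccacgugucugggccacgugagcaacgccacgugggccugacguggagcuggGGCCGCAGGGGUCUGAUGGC
Mir370: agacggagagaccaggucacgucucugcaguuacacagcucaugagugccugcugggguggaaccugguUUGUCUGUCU
Mir485: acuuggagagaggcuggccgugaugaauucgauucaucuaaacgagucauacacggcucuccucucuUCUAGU
Mir377: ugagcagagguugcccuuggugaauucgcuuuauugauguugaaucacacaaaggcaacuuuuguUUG
Mir410: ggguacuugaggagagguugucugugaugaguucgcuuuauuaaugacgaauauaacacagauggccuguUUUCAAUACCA
Mir496a: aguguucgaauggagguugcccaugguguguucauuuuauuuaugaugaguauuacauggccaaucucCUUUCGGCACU

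The mature miRNAs of the 3′ arm lie just before those capitals. They are the RefSeq sequences of the member miRNAs, with the seed (bases 2 to 8) in capitals.
miR-770-3p: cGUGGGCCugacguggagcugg
miR-433-3p: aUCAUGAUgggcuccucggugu
miR-370-3p: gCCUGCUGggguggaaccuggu
miR-485-3p: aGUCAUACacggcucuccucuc
miR-410-3p: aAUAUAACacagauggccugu
No seed was shared within this group. The seed of miR-410-3p occurs in 2 other mouse miRNAs of the RefSeq table, miR-344d-3p and miR-344e-3p, and the others in none.

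The site lay 1 nt past the last base of the 3p miRNA at Mir770, Mir370, Mir679, Mir496a, Mir377 and Mir410. It lay 2 nt past it at the main site of Mir485 and 4 nt past it at a second Mir485 site, and on the last base itself at Mir136. Outside the locus, 61.1% of 72 sites in stem-loops with an annotated 3p miRNA were at 1 nt, 8 of them were at 2 nt and 5 at the last base. The classifier that chose pile-up sites was trained on annotated miRNA cuts, so this placement was partly an entry condition. A CNNC motif (C, any 2 bases, C) with its first C at base 16 to 18 of the read followed the cut at Mir370, Mir485, Mir410, Mir679 and Mir496a, but not at Mir770, Mir377 and Mir136. It was present at 58.0% of 81 stem-loop sites outside the locus and at 16.5% of all 5973 sites outside it.

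**Figure D1:**
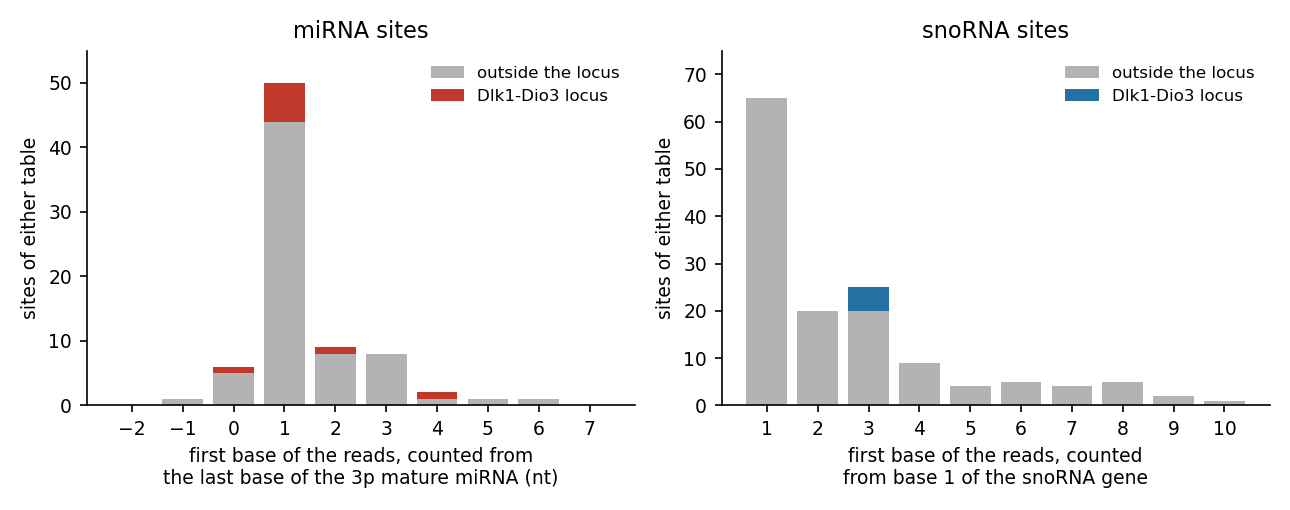
Position of the first base of the reads at sites of either table, relative to the last base of the mature 3p miRNA (left, nt) and to base 1 of the annotated snoRNA gene (right); bars count sites, grey outside the locus and coloured within it. Of the 9 miRNA sites of the locus 6 are at 1 nt, and its 5 annotated snoRNA sites are all at base 3.

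The remaining 5 member sites were in Rian exons, 4 of them in annotated snoRNA genes. They are printed from 2 bases before the site over 74 bases (GRCm38, plus strand), with TGATGA, a C box motif, and the last CTGA, the D box motif, in capitals.
AF357425: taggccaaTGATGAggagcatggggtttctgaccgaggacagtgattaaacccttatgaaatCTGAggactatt
Gm24895: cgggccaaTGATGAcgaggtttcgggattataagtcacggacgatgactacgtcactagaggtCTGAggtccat
DQ267100: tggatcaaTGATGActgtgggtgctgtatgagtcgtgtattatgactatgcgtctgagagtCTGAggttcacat
Rian, no gene at the site: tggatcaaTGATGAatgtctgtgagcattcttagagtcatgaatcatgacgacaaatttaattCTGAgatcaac
Gm26922: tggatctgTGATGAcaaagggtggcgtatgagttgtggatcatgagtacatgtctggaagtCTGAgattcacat
Reads at the 4 annotated snoRNAs, and at the Gm23787 snoRNA between Rian and Mirg, began at base 3 of the gene. Outside the locus 14.2% of 141 snoRNA sites began at base 3 and 83.7% within bases 1 to 5. At the remaining Rian site, chr12:109650669, GENCODE vM21 has a Rian exon and no snoRNA, with DQ267100 ending 981 nt before it and DQ267101 starting 755 nt after it. RefSeq places a 30-base snoRNA entry, AF357359, at chr12:109650709-109650738. The entry starts 40 nt downstream of the site and lies within the 74 bases printed for that site. TGATGA began at base 7 of the read at all 5 Rian sites and at Gm23787, against 41.8% of snoRNA sites outside the locus and 0.446% of the 5832 sites outside both the locus and snoRNA genes. The search used this strand and base 7 of the read only, and a match describes the letters, not a function. Base 7 is the offset at these sites of the locus, so their full match is no separate evidence of what they are. The snoRNA sites outside the locus were not split by class, and most did not begin at base 3 of the gene, so the shares are not of like sites. Of 13 snoRNA genes annotated on this strand of Rian, 4 had a site, and of 54 miRNA genes on this strand of the locus, 8 had one. The first 30 bases at each of the 15 sites of the locus occurred once in the genome.

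Sites are given by GRCm38 position, all on the plus strand. The Mir770 site, chr12:109563766, is in an exon of Meg3, 22.8 kb from its start. Mir136, chr12:109595387, lies opposite an exon of Rtl1, and of the stem-loop Mir3071 on the minus strand, at 54.4 kb. Mir370, chr12:109618327, is in an intron of Rian at 77.3 kb. The 5 snoRNA-type sites are in Rian exons between 95.01 and 113.6 kb, at chr12:109636014 (AF357425), chr12:109646131 (Gm24895), chr12:109649619 (DQ267100), chr12:109650669 and chr12:109654629 (Gm26922). Mir679, chr12:109715646, precedes Mirg at 175 kb. The Mirg exons hold Mir485 with 2 sites, chr12:109734969 and chr12:109734971, Mir377 at chr12:109740575 and Mir410 at chr12:109743785, and a Mirg intron holds Mir496a at chr12:109739187. The last of these sites is 203 kb from the start of Meg3.

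**Figure D2:**
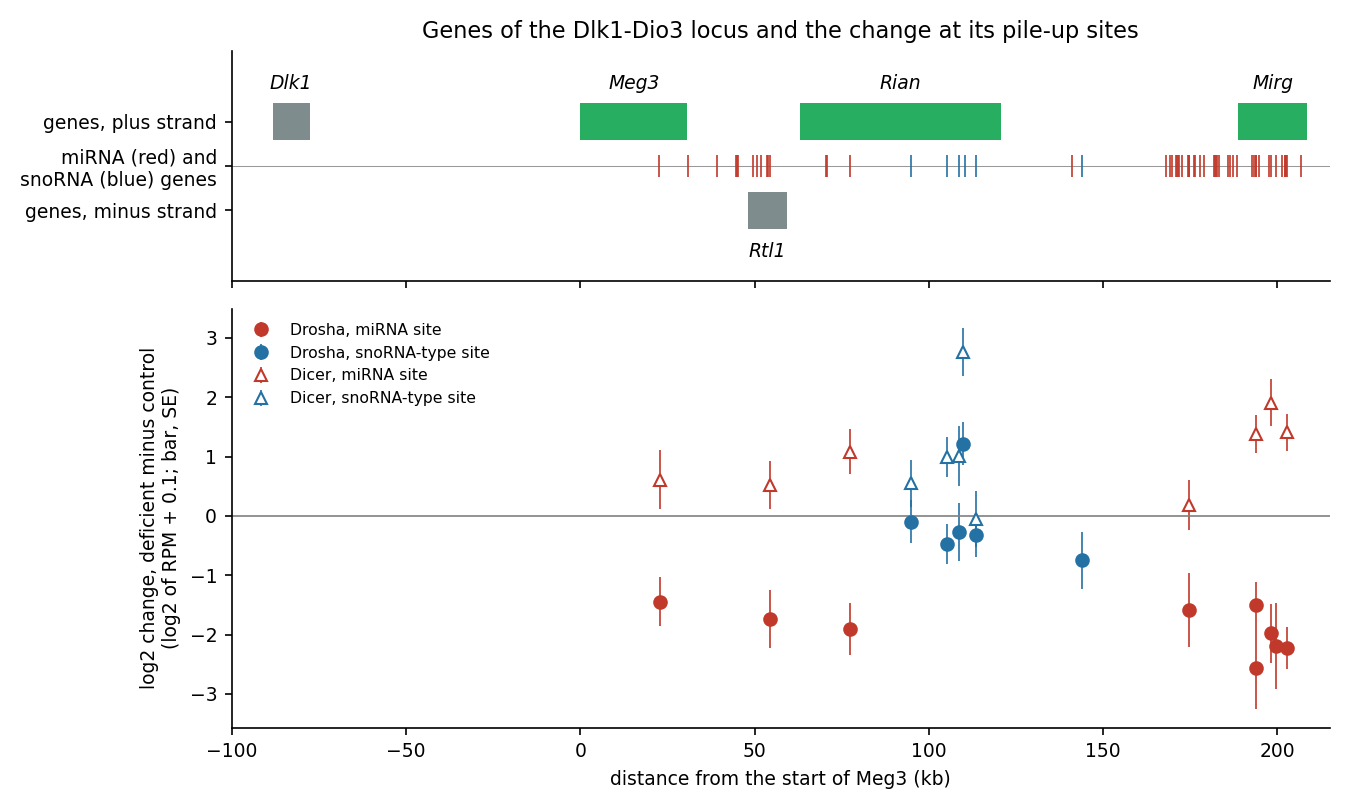
Genes of the locus (top; distance from the start of Meg3 in kb) and the log2 change at each site, deficient minus control (bottom; log2 of RPM plus 0.1, bars SE, 2 libraries per group). The 9 miRNA sites lie between −2.56 and −1.44 in Drosha-deficient cells, and the 7 of them in the Dicer table between 0.19 and 1.91.

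After loss of Drosha the calls at the locus were at miRNA sites, and none was at a snoRNA-type site. Called sites lay in Rian and Mirg and at the listed Mir136 and Mir679, and none in Meg3. Reads starting at the miRNA cuts were fewer in both Drosha-deficient libraries than in either control at all 6 member miRNA sites and at all 3 listed ones. This was so at 59.9% of all sites, at 85.7% of sites in miRNA genes outside the locus and at 55.8% of those in snoRNA genes outside it. The 5 Rian snoRNA-type sites gave no call in either direction. In bulk samples, fewer cells of a type and less RNA per cell cannot be told apart. Among the members, 4 of 11 sites were called lower and 0 higher, against 37.6% and 9.57% of all sites, so the share of members is near the background of this table. The 4 were all among the 6 miRNA sites. In miRNA genes outside the locus 56 of 84 sites were called lower, 66.7% as among the 6 member miRNA sites. With the listed sites, 7 of 9 miRNA sites of the locus (77.8%) were called lower. In snoRNA genes outside the locus 6 of 95 were called lower and 0 higher. No miRNA and snoRNA groups were tested against each other.

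Mir410 was the most abundant miRNA site. It had 33.6 and 25.1 RPM in the controls and 7.84 and 4.80 RPM in Drosha-deficient cells, which is 29.3 ± 6.01 against 6.32 ± 2.15 RPM (mean ± SD, n = 2). Both controls were above both Drosha-deficient libraries, and the site fell by 2.22 on the log2 scale (SE 0.36, FDR 9.09e-05). With centred libraries the change was −1.63 (FDR 6.06e-04), still past both thresholds.

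Mir370, the stem-loop in a Rian intron, had 3.45 and 3.87 RPM in the controls and 0.677 and 1.18 RPM in Drosha-deficient cells. The groups did not overlap, and the site fell by 1.91 on the log2 scale (SE 0.44, FDR 0.00135). The centred change of −1.32 missed the fold threshold with an FDR of 0.0177. The call also ended without Drosha control replicate 1 (FDR 0.0504) and without replicate 2 (FDR 0.0561).

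Mir485 in Mirg was captured at 2 neighbouring positions. The main site had 9.17 and 6.57 RPM in the controls and 3.16 and 2.29 RPM in Drosha-deficient cells, and the groups did not overlap. Its log2 change of −1.49 (SE 0.38, FDR 0.00301) passed the FDR but ended just short of the fold threshold, so it was not called. It was called without Drosha control replicate 2 (−1.73, FDR 0.0381) and without Drosha-deficient replicate 1 (−1.72, FDR 0.00118). The second site, 2 nt downstream, had 1.01 and 0.650 RPM in the controls, was at 0 in the first Drosha-deficient library and at 0.139 RPM in the second, and was called lower (log2 change −2.56, SE 0.69, FDR 0.00399). With a pseudocount of 1 RPM its change was −0.77 (FDR 0.00466), which ends the call. It rests on 48 control reads and 4 reads after deletion, a ratio of 12.4 with a 95% interval of 4.54 to 47.3 from counting error alone.

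Mir377 was the faintest site of the locus. It had 0.314 and 1.03 RPM in the controls and 0.0645 and 0.0348 RPM in Drosha-deficient cells, where both libraries were under the floor with 3 reads in all. The 39 control reads give a ratio of 13.4 (95% interval 4.27 to 67.9, counting error only), and the site was called lower at an FDR of 0.0144. The call ended with centred libraries (FDR 0.0699) and without Drosha control replicate 2 (FDR 0.0545).

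Mir770, the only stem-loop of Meg3 with a site, had 3.21 and 3.87 RPM in the controls and 1.45 and 1.04 RPM in Drosha-deficient cells. The groups did not overlap, but the log2 change of −1.44 (SE 0.42, FDR 0.00666) was short of the fold threshold, and the centred change of −0.85 also missed the FDR (0.0677). Without Drosha-deficient replicate 1 the site was called (−1.66, FDR 0.0043). By FDR alone all 6 member miRNA sites were lower, against 47.4% of all sites and 62 of 84 sites in miRNA genes outside the locus. No call was made for Mir770 and the main Mir485 site because of the fold alone.

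The listed miRNAs gave 3 more calls. Mir496a had 1.85 and 1.78 RPM in the controls and 0.355 and 0.417 RPM in Drosha-deficient cells, and fell by 1.98 on the log2 scale (SE 0.49, FDR 0.00234). Mir136 had 1.53 and 3.25 RPM in the controls and 0.645 and 0.556 RPM after deletion (log2 change −1.74, SE 0.49, FDR 0.00548). Mir679 had 0.907 and 1.03 RPM in the controls and 0.516 and 0.104 RPM after deletion, the last at the floor (log2 change −1.59, SE 0.62, FDR 0.0335). In all 3 the groups did not overlap. With a pseudocount of 1 RPM every call at the locus ended on the fold threshold except that of Mir410. None of the 3 listed calls held with centred libraries, where Mir496a had −1.39, Mir136 −1.15 and Mir679 −0.99. Mir136 also lost its call without Drosha control replicate 2 (FDR 0.118), and Mir679 without Drosha control replicate 1 (FDR 0.143) or 2 (FDR 0.17) or Drosha-deficient replicate 2 (FDR 0.321).

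The annotated Rian snoRNAs changed by less than their spread allowed to be called. AF357425 had 20.05 and 21.6 RPM in the controls and 14.5 and 26.1 RPM in Drosha-deficient cells, with controls between the deficient libraries (log2 change −0.10, SE 0.36, FDR 0.831). Gm26922 had 26.5 and 26.3 RPM in the controls and 14.8 and 30.3 RPM in Drosha-deficient cells (−0.32, SE 0.37, FDR 0.463). For these 2 the first Drosha-deficient library was low and the second high. Gm24895 had 12.7 and 11.5 RPM against 8.45 and 8.90 RPM, groups that did not overlap, with a log2 change of −0.47 (SE 0.34) and an FDR of 0.237. DQ267100, the faintest, had 1.43 and 0.992 RPM against 0.774 and 1.22 RPM (−0.27, SE 0.48, FDR 0.648). The changes of the 4 Rian snoRNAs turn positive with centred libraries, between 0.12 and 0.50, with no call. Gm23787, the snoRNA between Rian and Mirg, had 1.499 and 1.54 RPM in the controls and 0.645 and 1.15 RPM in Drosha-deficient cells. Its groups did not overlap, with lower values after deletion, but the site was not called (−0.75, SE 0.48, FDR 0.181), and its centred change stayed negative at −0.15. A missed threshold does not show that these sites were unchanged.

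The Rian site at chr12:109650669 moved the other way. It had 21.7 and 15.1 RPM in the controls and 55.03 and 32.4 RPM in Drosha-deficient cells, so both deficient libraries were above both controls. Its log2 change was 1.22 (SE 0.36, FDR 0.00687; 0.131 as the highest FDR with a library left out), past the FDR and short of the fold threshold, while 15% of all sites were higher at this FDR and 21.2% were higher with groups that do not overlap. Centred, it was 1.81 (FDR 2.99e-04) and called higher, and it was also called without Drosha-deficient replicate 2 (1.60, FDR 0.00146). In Drosha-deficient cells it was the most abundant site of the locus, with 43.7 ± 15.99 RPM (SD, n = 2), while in the controls it was number 4.

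The ratio of 2 sites within a library does not depend on the scaling of libraries. Reads at the Mir410 cut per read at Gm24895 numbered 2.64 and 2.19 in the controls and 0.927 and 0.539 in Drosha-deficient cells. The summed RPM of Mir770, Mir370, Mir485 and Mir410 per summed RPM of the 4 annotated Rian snoRNAs was 0.814 and 0.652 in the controls and 0.341 and 0.140 in Drosha-deficient cells. Both ratios were lower in both Drosha-deficient libraries, which says that the sites compared changed unequally and not which of them moved. Mir410 weighs on both ratios. It gave 33.6 of the 49.4 RPM of the miRNA sum in Drosha control 1 and 25.1 of 39.4 RPM in Drosha control 2. The snoRNA sum leaves out the Rian site with no annotated snoRNA, which was higher in both Drosha-deficient libraries. The ratios therefore do not compare miRNA and snoRNA sites as groups. An exact permutation test of 2 against 2 libraries cannot go below 0.333 (two-sided), so none was run.

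**Figure D3:**
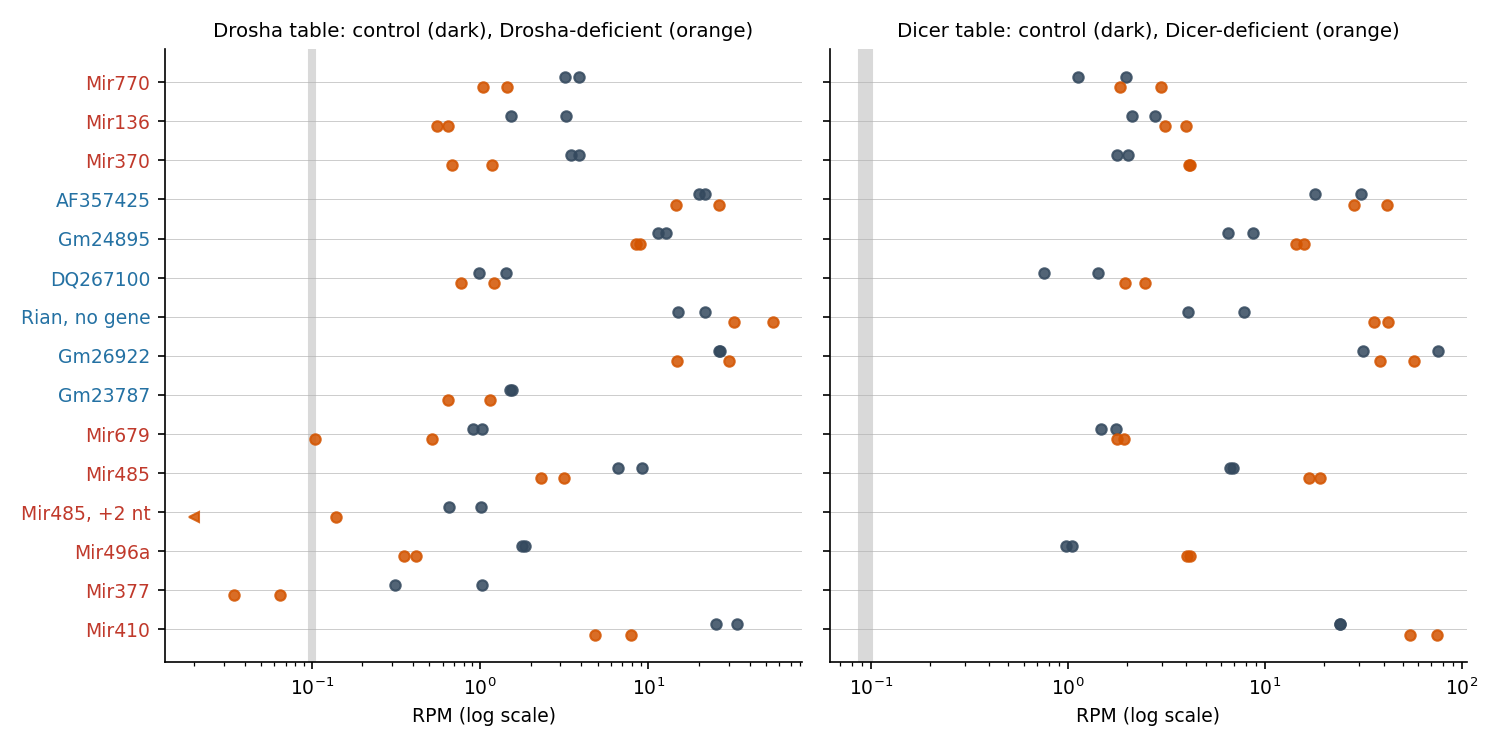
RPM (log scale) at each site of the locus in each library of the Drosha table (left) and the Dicer table (right), 1 dot per library, controls dark and deficient cells orange, with miRNA sites named in red and snoRNA-type sites in blue. The grey band is the floor of 3 reads, 0.0868 to 0.105 RPM, and a triangle marks a value of 0; the deficient libraries lie to the left of the controls at every miRNA site of the Drosha table, and at Mir410 to the right in the Dicer table.

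After loss of Dicer no site of the locus passed the test, but most of its sites had higher values. No site of the Dicer table passed the thresholds in either direction (limma, 0 of 4666, 0% each way; the smallest FDR was 0.465), and at an unadjusted p under 0.05 with the same fold 60 sites (1.29%) were lower and 54 (1.16%) higher, with 1 of the 9 members among the higher. Of the 9 members 6 had both Dicer-deficient libraries above both controls and 0 had them below, against 16.8% and 27.4% of all sites. At an unadjusted p under 0.05, 5 members were higher and 0 lower, against 4.65% and 5.19% of all sites. Their median log2 change was 1.01, against −0.12 over all sites, −0.22 over 72 sites of miRNA genes outside the locus and −0.48 over 89 sites of snoRNA genes outside it. The 9 sites share transcripts and libraries and are not independent, and these counts are a description without a test.

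The Rian site at chr12:109650669 had the highest log2 difference. It had 4.05 and 7.84 RPM in the Dicer controls and 35.8 and 42.1 RPM in Dicer-deficient cells, or 5.95 ± 2.68 against 39.0 ± 4.42 RPM (SD, n = 2). The log2 change of 2.76 (SE 0.41) ranked 1 of 4666 from the top, but its FDR was 0.465. Leaving out each library in turn gave log2 changes of 2.29 to 3.23 and an FDR of 0.0848 to 0.439.

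The Mirg stem-loops came next among the sites of the locus. Mir410 had 24.1 and 24.0 RPM in the controls and 54.7 and 75.1 RPM in Dicer-deficient cells, a log2 difference of 1.41 (SE 0.31, FDR 0.465). Mir485 had 6.92 and 6.67 RPM in the controls and 19.1 and 16.7 RPM in Dicer-deficient cells (1.38, SE 0.32, FDR 0.465). The listed Mir496a had 0.984 and 1.05 RPM against 4.16 and 4.03 RPM (1.91, SE 0.40, FDR 0.465). In each of the 3 the groups stood wide apart and the controls lay close to each other, yet no call was made. Counted from the highest, Mir496a ranked 51, Mir410 148 and Mir485 159 of 4666 sites.

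Mir370 had 2.03 and 1.78 RPM in the controls and 4.12 and 4.15 RPM in Dicer-deficient cells, without overlap (1.08, SE 0.38, FDR 0.469). Mir770 overlapped, with 1.13 and 1.98 RPM against 2.97 and 1.83 RPM (0.61, SE 0.50, FDR 0.655). Mir136 had 2.11 and 2.77 RPM against 3.11 and 3.97 RPM, and Mir679 had 1.48 and 1.75 RPM against 1.93 and 1.77 RPM, with log2 differences of 0.52 and 0.19. Both missed the FDR by far (0.637 and 0.877), although their groups did not overlap.

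Among the annotated Rian snoRNAs, Gm24895 had 8.68 and 6.50 RPM in the controls and 14.4 and 15.8 RPM in Dicer-deficient cells (1.00, SE 0.34, FDR 0.469). DQ267100 had 1.42 and 0.758 RPM against 2.47 and 1.96 RPM (1.01, SE 0.50, FDR 0.542). At these 2 the groups did not overlap. AF357425, with 30.6 and 17.9 RPM against 41.7 and 28.3 RPM (0.55, SE 0.39, FDR 0.614), and Gm26922, with 75.4 and 31.5 RPM against 57.4 and 38.5 RPM (−0.05, SE 0.48, FDR 0.971), overlapped. The first Dicer control was above the second at all 5 Rian sites except chr12:109650669, and by more than 2 times at Gm26922.

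Reads at Mir410 per read at Gm24895 numbered 2.78 and 3.69 in the Dicer controls and 3.79 and 4.75 in Dicer-deficient cells. The sum of the 4 miRNA sites per sum of the 4 annotated snoRNAs was 0.295 and 0.608 in the controls and 0.697 and 1.16 in Dicer-deficient cells. Both ratios were higher after Dicer deletion in both libraries, by a small margin for the first.

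The change after Drosha loss and the change after Dicer loss were compared directly by an interaction at the 2595 sites that both tables hold. The members Mir410, Mir370 and Mir485 and the listed Mir496a differed at an FDR under 0.05, each with a lower Drosha than Dicer change. This is 3 of 9 shared member sites, against 1.7% of all shared sites, and 0 members differed the other way, against 3.08%. For Mir410 the difference was −3.63 (SE 0.49, FDR 0.0218), for Mir485 −2.87 (SE 0.48, FDR 0.0239) and for Mir370 −2.996 (SE 0.57, FDR 0.0295). For Mir496a it was −3.89 (SE 0.62, FDR 0.0232). Mir770 (−2.05, SE 0.65, FDR 0.0761) and Mir136 (−2.26, SE 0.67, FDR 0.0687) missed the threshold, and so did Mir679 (−1.78, SE 0.91, FDR 0.182). Without a variance trend Mir410, Mir485 and Mir370 lost their calls (FDR 0.0534 each), and calls over all shared sites fell from 44 lower and 80 higher to 2 and 1. The median difference was −1.54 for the members and −0.46 over all shared sites. Sites of miRNA genes outside the locus had median log2 changes of −1.97 after Drosha loss and −0.22 after Dicer loss. By these medians a lower Drosha than Dicer change was also seen outside the locus. They are over 84 and 72 sites, which are not the same set, and the interaction was not summarised for them. All miRNA sites of the locus had medians of −1.91 after Drosha loss and 1.08 after Dicer loss.

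No Rian snoRNA-type site differed between the experiments by this test. The nearest was Gm24895 with −1.47 (SE 0.43, FDR 0.0687), and the site at chr12:109650669 had −1.54 (SE 0.59, FDR 0.103). AF357425 had −0.65 (SE 0.57), DQ267100 −1.28 (SE 0.74) and Gm26922 −0.27 (SE 0.69). The intervals are wide enough that equal changes were not shown. All 4 calls of the interaction ended when any 1 of the 4 Drosha libraries or Dicer-deficient replicate 1 was left out, with an FDR of up to 0.12 for Mir410, Mir485 and Mir496a and up to 0.134 for Mir370. Mir370 also lost its call without Dicer control replicate 2 (FDR 0.0649).

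**Figure D4:**
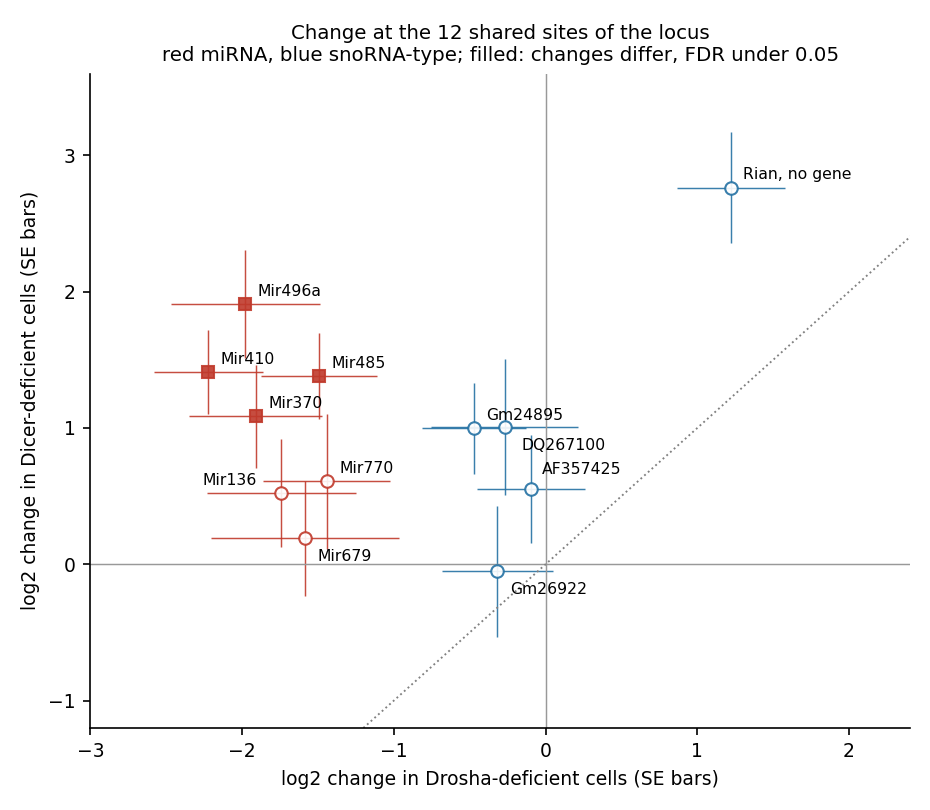
Log2 change in Drosha-deficient cells (horizontal) against the change in Dicer-deficient cells (vertical) at the 12 shared sites of the locus, bars SE, 2 libraries per group; red miRNA sites, blue snoRNA-type sites, filled squares where the 2 changes differ at an FDR under 0.05, and a dotted line where they would be equal. All 7 miRNA sites lie at the upper left, with Drosha changes of −2.22 to −1.44, and 4 of the 5 Rian sites near 0 on the horizontal axis.

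Levels in the 2 control groups are set side by side and not tested, since line and handling differ. In the Drosha controls the highest site was Mir410 with 29.3 ± 6.01 RPM (SD, n = 2), whose libraries overlapped those of the next, Gm26922 with 26.4 ± 0.0837 RPM. AF357425 with 20.8 ± 1.09 RPM followed, apart from Gm26922 but overlapping chr12:109650669 with 18.4 ± 4.67 RPM. Then came Gm24895 (12.1 ± 0.894 RPM), Mir485 (7.87 ± 1.84 RPM) and Mir370 (3.66 ± 0.293 RPM), each apart from the one before it. Mir770 (3.54 ± 0.466 RPM) overlapped Mir370, and the remaining sites were under 2.5 RPM. In the Dicer controls Gm26922 led with 53.4 ± 31.0 RPM, ahead of AF357425 with 24.2 ± 8.98 RPM and Mir410 with 24.0 ± 0.0901 RPM, which overlapped. After Dicer deletion Mir410 was first with 64.9 ± 14.4 RPM, but it overlapped Gm26922 with 47.9 ± 13.3 RPM.

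RNA-seq gave only 1 value per gene, the authors' mean log2 CPM over all 6 control and Drosha-deficient libraries, so it shows levels and no comparison of conditions. The 3 non-coding hosts were above the median gene and Dlk1, the only coding member with a row, was below it. Rian had a mean of 7.56 log2 CPM, Meg3 7.27 and Mirg 5.03, while Dlk1 had 0.42. Per kb of joined exons the log2 levels were 3.37 for Rian, 3.09 for Meg3 and 2.16 for Mirg, above 75.4%, 72.1% and 61.0% of genes. Dlk1, a transmembrane ligand of the Notch family, was at −2.08 per kb, above 21.1% of genes. Rtl1, the retrotransposon-derived gene opposite Mir136 and Mir433, had no row, and neither had Mir770, Mir485 and Mir410.

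Of the miRNA members Mir433 and Mir370 had rows, Mir433 with −0.48 and Mir370 with −2.69 log2 CPM. A polyA library of long fragments counts a stem-loop of this size through its host, so these values cannot be told apart from uncut host RNA. Of the 56 listed genes 19 had a row. Of these 16 were miRNA genes with −2.69 to −0.98 log2 CPM, and the coding flank genes Begain, a synaptic protein, and Dio3, the deiodinase that inactivates thyroid hormone, had 2.89 and −1.60 log2 CPM, against a median of 2.34 over all genes. Dio3os, antisense to Dio3, had −1.91 log2 CPM.

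All 10 stem cell markers had 6.14 to 10.2 log2 CPM in the same table, so the markers of the labelled cell type were present. Over the 6 libraries together Drosha had 6.58, Dicer1 7.27, Dgcr8 6.86 and Mir290a 4.57 log2 CPM. The 10 fibroblast markers ran from −0.63 (Lum) to 6.6003 (Col1a1) log2 CPM, with a median of 3.14, and the part of feeder cells in the host levels was not tested. No fibroblast marker gene held a pile-up site in either degradome table, while 2 of the 10 stem cell markers had sites in the Drosha table and 3 in the Dicer table. Most stem cell markers thus had no site despite their high levels. The lack of sites in fibroblast markers therefore cannot show whether feeder RNA was present in the degradome.

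**Figure D5:**
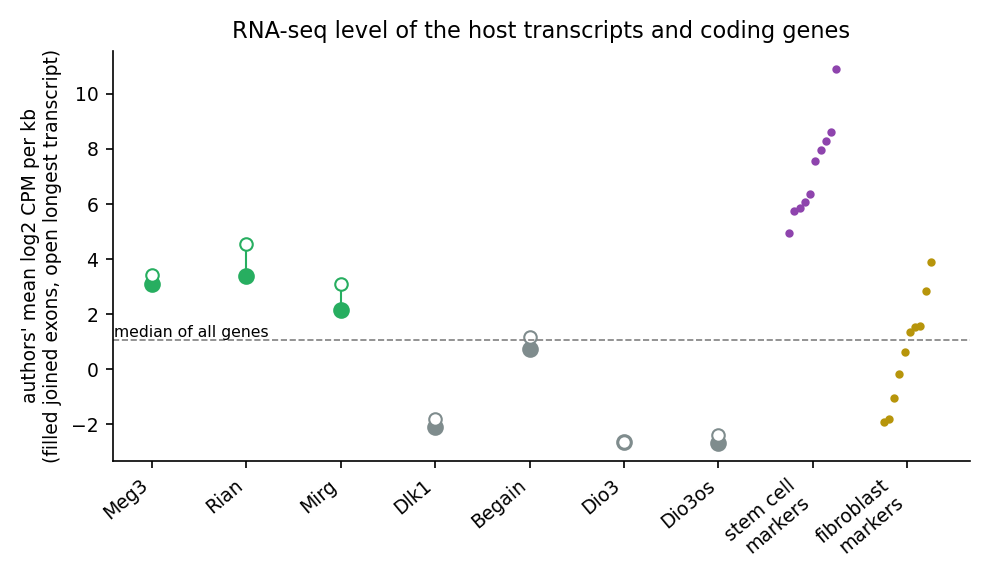
Authors' mean log2 CPM per kb for the host transcripts (green) and coding or flanking genes (grey), per kb of joined exons (filled) or of the longest transcript (open), with the 10 stem cell and 10 fibroblast markers as dots and the median of all genes as a dashed line. Rian, Meg3 and Mirg lie at 2.16 to 3.37 and Dlk1 at −2.08.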

How the data were processed

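For Degradome-seq the authors used Trimmomatic (0.38.0 in the submitters' notes) and STAR on GRCm38. The depth of read starts was passed to a classifier trained on known miRNA cuts, a position had to be accepted in both control replicates, and RPM of mapped reads was deposited for each library. For RNA-seq, from a stranded polyA kit, they deposited a mean log2 CPM per gene. The fold changes, p-values and FDR of the authors' own edgeR comparisons (3.26.1) in these tables were not used here, so no RNA-seq comparison is given.

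From RPM, limma 3.58.1 in R 4.3.3 fitted log2(RPM + 0.1) on 4 libraries per table, with a variance trend, and on 8 libraries for the interaction. Steps of the RPM values gave mapped reads (values under 5 RPM within 0.02 of whole); a test on counts was not run. On simulated data the fits recovered the changes put in, and the interaction fit also called a few unchanged sites. The changes put in were larger than any Drosha or Dicer change at the locus and had a set spread. They were put only into brighter sites, so power for smaller changes or faint sites was not tested. Annotation came from GENCODE vM21, sequences from RefSeq (GRCm38), of which miR-485-5p is named only. Exon lengths scaled RNA-seq levels. Tables were handled in pandas 2.3.3 under Python 3.11.15 and numpy 2.4.6, with scipy 1.17.1 for exact intervals and matplotlib 3.10.9 for plots. Members, lists and named sites (all members, listed genes with a site or row, and control genes) were chosen with earlier results of these data known.

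Replicate numbers are shared between groups, but no label pairs the libraries. Alternatives changed the pseudocount (1 RPM), a filter (mean of 0.5 RPM), the trend, the scaling, the fold threshold (1), a replicate term, the libraries and the length used per kb.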

Additional observations from a re-analysis of the deposited data

Results flagged for a closer look

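At 4 sites the change after Drosha loss differed from the change after Dicer loss, by the interaction in limma at an FDR under 0.05. The log2 difference, Drosha change minus Dicer change, was −3.63 at Mir410, −2.996 at Mir370, −2.87 at Mir485 and −3.89 at Mir496a. At each of them both Drosha-deficient libraries were below their controls and both Dicer-deficient libraries above theirs. The control lines, the delivery of Cre and the sorting also differ between the experiments and cannot be told apart from the gene deleted. Without any 1 of the 4 Drosha libraries or without Dicer-deficient replicate 1 none of the 4 passed, with an FDR of up to 0.134. Without a variance trend Mir410, Mir370 and Mir485 missed the threshold at an FDR of 0.0534.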

How the results depend on the processing

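The count test planned for whole reads was not run, so all calls rest on log2 RPM. Of the 11 member sites, the 4 called lower after Drosha loss became 1, Mir410, with a pseudocount of 1 RPM, 2 with a mean of at least 0.5 RPM, a filter that takes out Mir377 and the second Mir485 site, and 2 with centred libraries. They were 3 to 6 with 1 library left out. The 0 called higher became 1 with centring and with a fold threshold of 1, and 0 to 1 with a library left out, where Drosha-deficient replicate 2 gave the 1. Over all sites 1473 lower calls became 548 with a pseudocount of 1 RPM, 871 with centring and 907 without Drosha control replicate 1. With centring the log2 changes of AF357425, Gm24895, DQ267100 and Gm26922 reversed to 0.50, 0.12, 0.32 and 0.28, and without Drosha-deficient replicate 1 those of AF357425, DQ267100 and Gm26922 reversed to 0.33, 0.026 and 0.20. Leaving out a library gave −0.52 to 0.33 for AF357425, −0.56 to 0.026 for DQ267100 and −0.83 to 0.20 for Gm26922.

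In the Dicer comparison 0 members were called under every alternative except the replicate block, which called 1, chr12:109650669 (FDR 1.20e-07), and the listed Mir496a (FDR 0.0015), with 67 lower and 119 higher calls over all sites. Gm26922 ran from −0.68 to 0.58 with a library left out. In the interaction the 3 members became 0 without a variance trend, where Mir496a alone kept its call (Mir410, Mir485 and Mir370 had an FDR of 0.0534), 6 with the replicate block, which added Mir770, Gm24895 and chr12:109650669, and 0 to 4 with a library left out. All-site counts of 44 lower and 80 higher became 2 and 1, 934 and 386, and up to 726 and 243. With centring they were 123 and 287, and Gm26922 reversed to 0.25. With a library left out it ran from −0.89 to 0.36. The same-numbered libraries deviated together with a correlation of 0.13 over sites in the Drosha and 0.53 in the Dicer experiment, and the block changed no call of a member in the Drosha comparison. The cause of these shifts was not tested. Per kb of the longest transcript Meg3 was at 3.41, Rian at 4.54, Mirg at 3.09 and Dlk1 at −1.80 log2. Depth limits Mir377 and the second Mir485 site, which had 3 and 4 reads after Drosha loss. It also limits the listed Mir679, which had 3 reads in Drosha-deficient replicate 2.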
